A study of Mus musculus with 2 samples.

Results

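The transcripts described here are Snhg1, Snhg5, Snhg12 and Gas5, noncoding hosts of small nucleolar RNAs, the splicing kinases Clk1 and Clk4, and Pnrc1, a coding transcript. They are 7 of the 17608 genes measured in erythroid progenitors of the mouse fetal liver. They were chosen by their values in these same cells: Clk1 and Snhg5 were lower in both pools isolated with a magnet than in the pools of the same stage isolated by fluorescence-activated cell sorting (FACS). That contrast is therefore a description here. Not all members share it in size. Clk1, Snhg5 and Snhg12 were lower after the magnet by 1.40-fold or more at both stages, Pnrc1 differed mainly at the early stage, and Gas5 and Clk4 differed little.

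A small nucleolar RNA guides the chemical modification or cleavage of ribosomal RNA, and most are cut out of the introns of longer host genes. The spliced exons of a noncoding host have no long reading frame, and the host RNAs known best, Gas5 among them, are degraded in the cytoplasm by nonsense-mediated decay when ribosomes read them, so their level follows translation and growth state. CLK kinases phosphorylate the serine- and arginine-rich (SR) splicing proteins. Part of the Clk1 and Clk4 RNA is known to stay in the nucleus with introns unspliced and to be spliced when the cell is stressed. Pnrc1 encodes a small protein that binds nuclear receptors and the mRNA decapping machinery. A kit that reads the 3′ end of a transcript, as used here, does not tell spliced from unspliced RNA.

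The cells came from livers of C57BL/6 embryos at embryonic day 14.5 and were low in CD71 and CD24, per the labels. A hashed library, in which antibody-linked barcodes mark the origin of each cell, held 4 pools: FACS BFU-E (233 cells), PE-low (208), FACS CFU-E (167) and PE-high (294). BFU-E, or burst-forming unit-erythroid, is the earlier committed red cell progenitor, and CFU-E, or colony-forming unit-erythroid, the later one. A second library, stained with barcoded antibodies to CD117 and CD71 (CITE-seq), held CS BFUE (122 cells), CS CFUE (195) and 2136 cells with no pool name. The labels name a magnet method beside FACS, and PE-low and PE-high were taken as its early and late fractions. The sources used here do not spell out PE or CS. The labels give all groups the same strain, age and CD71 and CD24 gate. Whether every pool passed that gate cannot be checked here. The labels also describe growth with dexamethasone or methanol, and whether the sequenced cells went through it is not given. How many embryos gave each pool is not given either.

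Each pool is 1 sample, so no difference between pools has a replicate check and no test was made. Levels are unique molecular identifiers (UMIs) of a gene summed over a pool and scaled to the same total in every pool (CPM). The 6 pools held 2968491 to 11003022 UMIs, with medians of 23449 to 38664 UMIs per cell, and no cell barcode was shared between the libraries. Ranges in parentheses after a ratio are 95% exact binomial intervals that cover counting error only. To enter a comparison, a gene needed 50 CPM or more in one of the paired pools and a UMI in 10% or more of the cells of one of them. Where one pool was under 50 CPM, the gene entered through a higher level in the other, and its direction follows from the filter. A ratio of at least 1.5 is a size used for counting, not a test.

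The labelled stage was checked on markers. Tfrc, which encodes CD71, stood at 82.0 CPM for FACS BFU-E, 107 in PE-low and 58.6 in CS BFUE. It was at 326 in FACS CFU-E, 303 in PE-high and 276 in CS CFUE, so its RNA was not alike across the pools. Klf1, an erythroid transcription factor, stood at 197 CPM for FACS BFU-E, 214 in PE-low and 124 in CS BFUE, against 490 in FACS CFU-E, 451 in PE-high and 357 in CS CFUE. Transcripts of granulocyte progenitors were present in the early pools: the summed level of 5 markers was 1338 CPM for FACS BFU-E, 723 in PE-low and 633 in CS BFUE. In the late hashed pools it was 6.42 for FACS CFU-E, where Elane and Ms4a3 were at 0, and 183 for PE-high. Ribosomal protein transcripts took 22.3% to 23.5% of UMIs in the hashed pools and 30.02% to 32.0% in the CITE-seq groups, so levels across libraries are only set side by side.

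The start sites of the noncoding hosts are shown because all 4 hold TATA before an annotated start in the RefSeq promoter table (GRCm38.p6). The choice of members did not use this feature. The search window, given below, sets how far before the start TATA can lie. Snhg1 (ENSMUSG00000108414) lies at chr19:8723487-8726326 with 8 small nucleolar RNA genes inside it, Snhg5 (ENSMUSG00000097195) at chr9:88521052-88522897 with 2, Snhg12 (ENSMUSG00000086290) at chr4:132308678-132311024 with 4, and Gas5 (ENSMUSG00000053332) at chr1:161034601-161038539 with 8. Clk1 (ENSMUSG00000026034) lies at chr1:58411988-58424088, Clk4 (ENSMUSG00000020385) at chr11:51263114-51281770 and Pnrc1 (ENSMUSG00000040128) at chr4:33245423-33248787. Gas5 and Clk4 overlap other annotated genes; whether counting used the strand is not given, so reads from the overlaps are uncertain. The 5 stretches below run 5′ to 3′ on the strand of the gene. Those of the 4 hosts hold 60 bases before the annotated start and the first 40 transcribed bases, and that of Clk4 holds the 100 bases before its start. Capitals mark TATA and the cAMP response element TGACGTCA.
Snhg1: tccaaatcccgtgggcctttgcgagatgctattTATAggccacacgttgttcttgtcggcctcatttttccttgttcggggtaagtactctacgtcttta
Snhg5: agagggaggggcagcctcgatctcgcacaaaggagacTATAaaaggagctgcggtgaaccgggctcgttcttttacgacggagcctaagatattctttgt
Snhg12: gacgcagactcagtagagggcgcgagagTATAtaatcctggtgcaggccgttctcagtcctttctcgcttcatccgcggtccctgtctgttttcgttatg
Gas5: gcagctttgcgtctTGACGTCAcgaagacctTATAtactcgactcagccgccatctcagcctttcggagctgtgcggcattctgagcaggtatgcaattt
Clk4: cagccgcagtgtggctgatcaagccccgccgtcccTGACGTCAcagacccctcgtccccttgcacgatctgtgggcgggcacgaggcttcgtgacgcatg

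The stretches are chr19:8723427-8723526 (plus strand) for Snhg1, chr9:88522858-88522957 (minus strand) for Snhg5, chr4:132308618-132308717 (plus) for Snhg12, chr1:161035106-161035205 (plus) for Gas5 and chr11:51263014-51263113 (plus) for Clk4. TATA began 27 bases before the start in Snhg1, 23 in Snhg5, 32 in Snhg12 and 29 in Gas5. The Gas5 stretch belongs to the downstream of 2 annotated starts, at 161035166, and the upstream one, at 161034601, had no TATA there. TATA was searched on the gene strand, wholly between 40 and 20 bases before the start, and 5.49% of the 32851 promoters in the table hold it there. It was absent from that window in Clk4 and Pnrc1. Clk1 has no entry in the table. Of the other noncoding host genes listed, 14 had a promoter entry and 2 of them, Snhg7 and Snhg8, held TATA in the window. The host 1110038B12Rik, described below, also held it, 28 and 31 bases before its 2 annotated starts. TGACGTCA, which reads the same on both strands, began 46 bases before the start of Gas5 and 65 before that of Clk4, and 1.79% of all promoters held it anywhere in the 300 bases tabled. It was also found 88 bases before the start of the host Snhg15 and 18 before that of Ccnl1. The motifs were chosen after the sequences were seen, and a match is a description, not a site of binding.

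**Figure D1:**
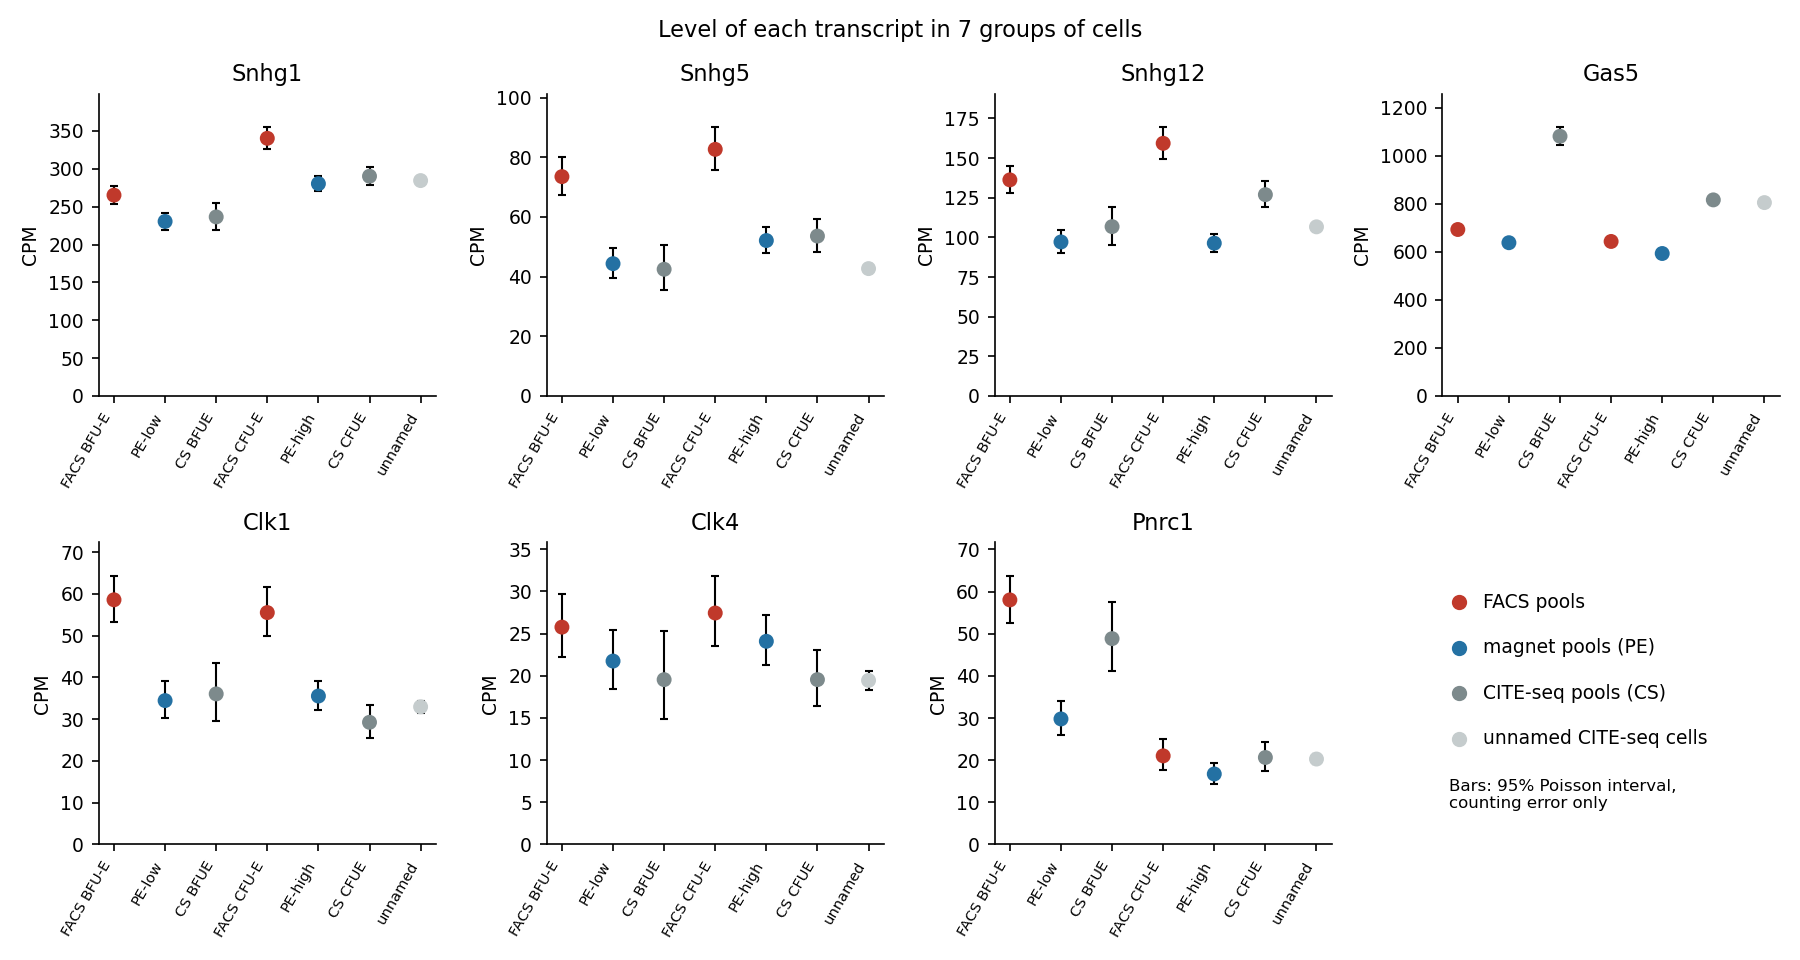
Level in CPM (y axis, from 0) of each of the 7 transcripts in the 7 groups of cells (x axis), with 95% Poisson intervals that cover counting error only. For Clk1 and Snhg5 the 2 FACS pools sit above all other groups; Pnrc1 separates the early from the late pools, and Gas5 is highest in the CITE-seq groups.

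Clk1 encodes a dual-specificity kinase that releases SR proteins from nuclear speckles. Its level was 58.6 CPM for FACS BFU-E and 55.5 for FACS CFU-E, against 34.4 for PE-low and 35.5 for PE-high. In the CITE-seq library it was 36.0 in CS BFUE, 29.2 in CS CFUE and 33.0 in the unnamed cells. The FACS pools thus stood apart, and the magnet pools lay among the CITE-seq groups. The ratio of FACS BFU-E to PE-low was 1.70 (1.45 to 2.00) and that of FACS CFU-E to PE-high 1.56 (1.35 to 1.81). Clk1 was under 50 CPM in both magnet pools, so it entered these comparisons through the FACS pools.

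Snhg5 holds 2 small nucleolar RNA genes. It stood at 73.5 CPM for FACS BFU-E, 44.3 in PE-low, 82.6 for FACS CFU-E and 52.1 in PE-high. CS BFUE had 42.4, CS CFUE 53.6 and the unnamed cells 42.7. As for Clk1, the 2 FACS pools were above the other 5 groups. The FACS to magnet ratio was 1.66 (1.44 to 1.91) at the early and 1.59 (1.41 to 1.79) at the late stage. In the early comparison Snhg5 passed the level filter only in FACS BFU-E.

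Snhg12 had 136 CPM for FACS BFU-E, 97.1 in PE-low, 159 for FACS CFU-E and 96.3 in PE-high, and 107 in CS BFUE, 127 in CS CFUE and 107 in the unnamed cells. Its FACS to magnet ratio was 1.40 (1.27 to 1.55) at the early and 1.65 (1.52 to 1.81) at the late stage. Snhg1, which holds 8 small nucleolar RNA genes, had 265 CPM for FACS BFU-E, 231 in PE-low, 340 for FACS CFU-E and 280 in PE-high, with 236 in CS BFUE, 290 in CS CFUE and 284 in the unnamed cells. Its ratios were smaller, 1.15 (1.08 to 1.23) and 1.21 (1.15 to 1.28). Both hosts were lower after the magnet at each stage, and only Snhg12 reached 1.5-fold, at the late stage.

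Gas5 was named for its accumulation in growth-arrested cells. It had 693 CPM for FACS BFU-E, 638 in PE-low, 643 for FACS CFU-E and 593 in PE-high, a ratio of 1.09 (1.04 to 1.13) at the early and 1.08 (1.04 to 1.13) at the late stage. In the CITE-seq library it was higher, at 1081 in CS BFUE, 816 in CS CFUE and 805 in the unnamed cells. The order of the groups for Gas5 was thus unlike that of Snhg5 and Snhg12.

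Clk4, the closest relative of Clk1, was at 25.8 CPM for FACS BFU-E, 21.7 in PE-low, 27.4 for FACS CFU-E and 24.1 in PE-high, and at 19.5, 19.5 and 19.4 in CS BFUE, CS CFUE and the unnamed cells. It entered no comparison. Its FACS to magnet ratios, 1.19 (0.953 to 1.48) and 1.14 (0.934 to 1.39), have intervals that include 1. At both stages these intervals overlap those of Clk1, so no difference between the kinases is read from them.

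Pnrc1 was at 58.0 CPM for FACS BFU-E, 29.8 in PE-low and 48.8 in CS BFUE, and at 21.0 in FACS CFU-E, 16.7 in PE-high, 20.6 in CS CFUE and 20.3 in the unnamed cells. The early ratio of FACS to magnet was 1.95 (1.65 to 2.31), the largest of the 7, and the late one 1.26 (0.997 to 1.58). Unlike Clk1 and Snhg5, Pnrc1 was nearly as high in the early CITE-seq pool as in FACS BFU-E. It passed the filter only in FACS BFU-E among the hashed pools, so its direction in the early comparison follows from the filter.

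By point value, all 7 transcripts were lower in both magnet pools than in the FACS pool of the same stage. At the early stage 6 entered and 3 lay past 1.5-fold (Clk1, Snhg5 and Pnrc1), where 0.490% of the 3267 genes that entered were that much higher in FACS BFU-E. At the late stage 5 entered and 3 lay past it (Clk1, Snhg5 and Snhg12), against 0.123% of 3257 genes higher in FACS CFU-E. Of 2957 genes that entered both, 22.7% were lower in both magnet pools by any size, and 0.0676%, Clk1 and Snhg5 alone, by 1.5-fold in each. Over all genes the median log2 ratio of magnet to FACS was 0.02 at the early and -0.003 at the late stage; over the members that entered it was -0.61 and -0.64. Since the members were chosen on this contrast, nothing is read from these counts.

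Ordered by the sum of the 2 log2 ratios, the gene with the lowest sum was Jund, a subunit of the AP-1 transcription factor, followed by Clk1, Snhg5 and Snhg12. Snhg1 ranked 32 and Gas5 183 of 2957. Just short of 1.5-fold at the early stage was Snhg12, at a log2 ratio of -0.49. The next genes down the order were 2410006H16Rik and Ccnl1, at -0.46 and -0.44 at the early stage and -0.42 and -0.40 at the late one.

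**Figure D2:**
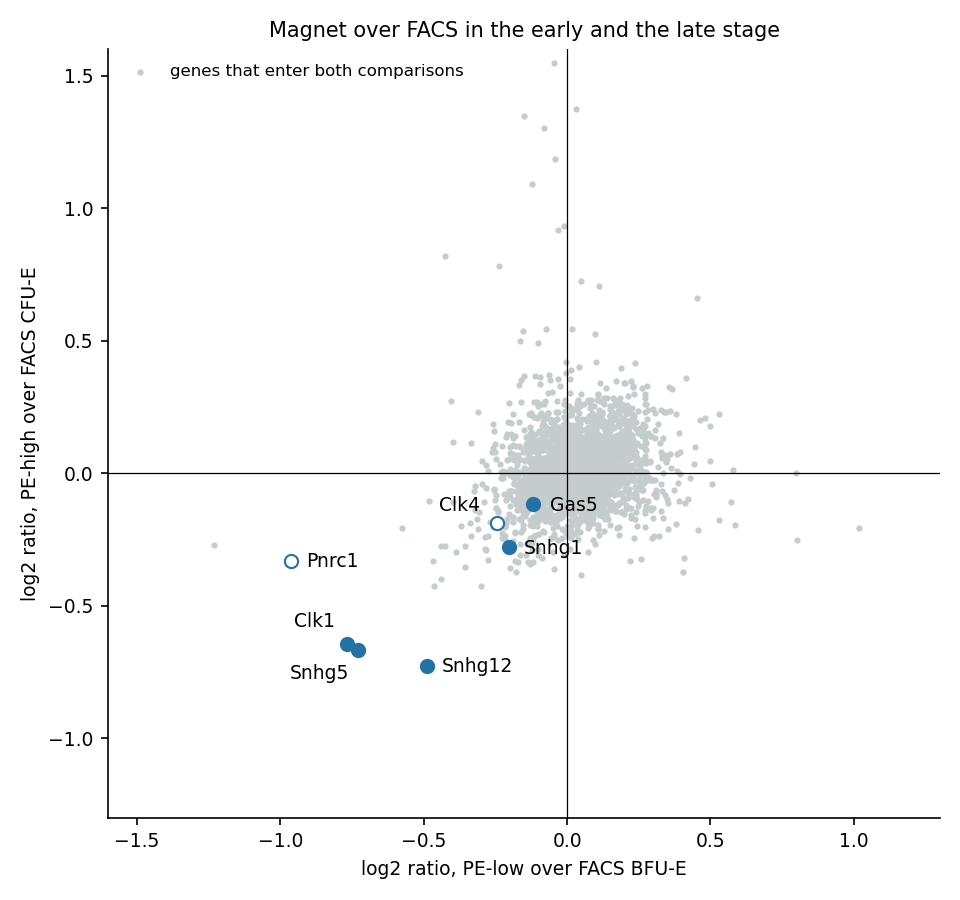
Each point is a gene, with the log2 ratio of PE-low to FACS BFU-E on the x axis and of PE-high to FACS CFU-E on the y axis; grey points are 2957 genes that entered both comparisons, 6 of them outside the axes, and open blue points are members that did not. Clk1, Snhg5 and Snhg12 lie at the lower left edge, with log2 ratios between -0.77 and -0.49, while Gas5, Snhg1 and Clk4 lie inside the cloud or at its edge.

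Across libraries, 5.23% of the 3632 genes that entered any comparison had both FACS pools above all 5 other groups of cells, and 0.0551%, Clk1 and Hspa1a, by at least 1.5-fold. Hspa1a encodes an inducible heat shock protein. The lower FACS level of Clk1 was 1.54 times the highest level among the other groups. Snhg5 and Snhg12 were also above all 5 groups, as was Clk4 below the filter. For the 3 CITE-seq groups alone, 42.6% of genes had both FACS pools above them, and of the 6 members that entered, Clk1, Snhg5 and Snhg12 did. The high FACS values of Clk1 and Snhg5 were used in choosing the members, so nothing is read from this count either. The CITE-seq groups differ from the FACS pools in library as well as in isolation, and these cannot be told apart.

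Stage was a comparison that the choice of members did not use. Pnrc1 was higher in the early pool in all 3 pairs, by 2.76-fold (2.27 to 3.38) with FACS. The difference was 1.78-fold (1.45 to 2.18) with the magnet and 2.37-fold (1.87 to 2.99) in the CITE-seq library. In the magnet and CITE-seq pairs Pnrc1 was under the level filter in both pools and did not enter. Snhg1 was higher in the late pool in each pair, by 1.28-fold (1.21 to 1.37), 1.22-fold (1.15 to 1.29) and 1.23-fold (1.13 to 1.34). Snhg5 was also higher in the late pool, by 1.12-fold (0.995 to 1.27), 1.17-fold (1.02 to 1.35) and 1.26-fold (1.03 to 1.56). Without cells that carry myeloid transcripts, described below, its log2 ratios of early to late went from -0.17, -0.23 and -0.34 to -0.002, -0.05 and -0.04, close to 0 in all 3 pairs. With the same cells left out of the magnet pair, Snhg1 was at 256 CPM in PE-low and 285 in PE-high. Pnrc1 was then at 21.7 CPM in PE-low and 14.2 in PE-high. Gas5 was higher in the early pool, by 1.08-fold (1.03 to 1.12), 1.08-fold (1.04 to 1.12) and 1.32-fold (1.27 to 1.38). The noncoding hosts thus did not share a direction with stage.

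Clk1 hardly differed with stage, with an early to late ratio of 1.06 (0.914 to 1.22) with FACS, 0.969 (0.823 to 1.14) with the magnet and 1.23 (0.968 to 1.56) in the CITE-seq library. For Clk4 the 3 ratios were 0.939, 0.903 and 1.00, and all 3 intervals include 1. Snhg12 was higher in the late pool with FACS (1.17-fold, 1.07 to 1.28) and in the CITE-seq library (1.19-fold, 1.05 to 1.35), and the magnet pools had a ratio of 0.992 (0.9003 to 1.09). Pnrc1 in the FACS pair was the only member past 1.5-fold among those that entered. Of all genes that entered the FACS pair, 9.58% were that much higher in the early and 9.15% in the late pool. The shares were 6.94% and 5.84% for the magnet pair and 8.77% and 10.7% for the CITE-seq pair. Pnrc1 entered the FACS pair through the early pool alone, and nothing is read from 1 gene.

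Other members of the 2 families were described from fixed lists. Of 14 other noncoding small nucleolar RNA hosts in the table, 7 entered each magnet comparison and none lay past 1.5-fold. Over all genes that entered, only 26 of 3267 at the early and 27 of 3257 at the late stage lay past it in either direction. A count of none among 7 therefore does not set these hosts apart from other genes. Their median log2 ratio was 0.04 at the early and 0.01 at the late stage. Within them 3 were lower after the magnet at both stages: Snhg15 by log2 ratios of -0.42 and -0.28, Zfas1 by -0.28 and -0.29 and Epb41l4aos by -0.29 and -0.29. Snhg3 (0.13 and 0.19), Snhg6 (0.04 and 0.01), Snhg8 (0.08 and 0.05) and Dancr (0.28 and 0.15) were not. The hosts therefore split, and the lower level after the magnet was not shared by all of them. Snhg17, at 31.2 CPM for FACS BFU-E, 24.3 in PE-low, 35.0 for FACS CFU-E and 24.6 in PE-high, was under the filter and lower in both magnet pools. Snhg20, also under the filter, went the other way, at 24.5 CPM with FACS and 38.8 with the magnet at the early stage and 26.5 and 34.2 at the late stage. Both are named after their values were seen.

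A pair of noncoding RNAs outside the list, seen among the lowest genes of the order above and so named after their values were seen, also carry small nucleolar RNA genes. 2410006H16Rik (chr11:62602877-62604806) holds 3 and had 180 CPM for FACS BFU-E, 131 in PE-low, 174 for FACS CFU-E and 129 in PE-high. 1110038B12Rik (chr17:34950235-34952471) holds 2 and had 233, 192, 251 and 200 CPM in the same order. Unlike Snhg5, both were higher in the CITE-seq library than in any hashed pool, at 246 and 251 CPM for 2410006H16Rik and 263 and 306 for 1110038B12Rik in CS BFUE and CS CFUE. Coding hosts of small nucleolar RNAs, 47 of 52 of which entered, had median log2 ratios of -0.03 and -0.03 and none past 1.5-fold. Since few genes of any kind lay past that size, the count does not set the coding hosts apart. Their lowest was Eif4a2, an RNA helicase of translation initiation, at -0.27 at the early stage.

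Among kinases, the other CLK and DYRK genes were all under the level filter, and none of 7 entered. Clk2 stood at 17.5 CPM for FACS BFU-E, 20.6 in PE-low, 15.2 for FACS CFU-E and 16.6 in PE-high, and Clk3 at 25.8, 25.1, 32.3 and 33.3. Both are named after their values were seen. Neither was lower in both magnet pools by an interval that excludes 1. Srpk1 and Prpf4b, which also phosphorylate SR proteins, had log2 ratios between -0.02 and 0.10.

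**Figure D3:**
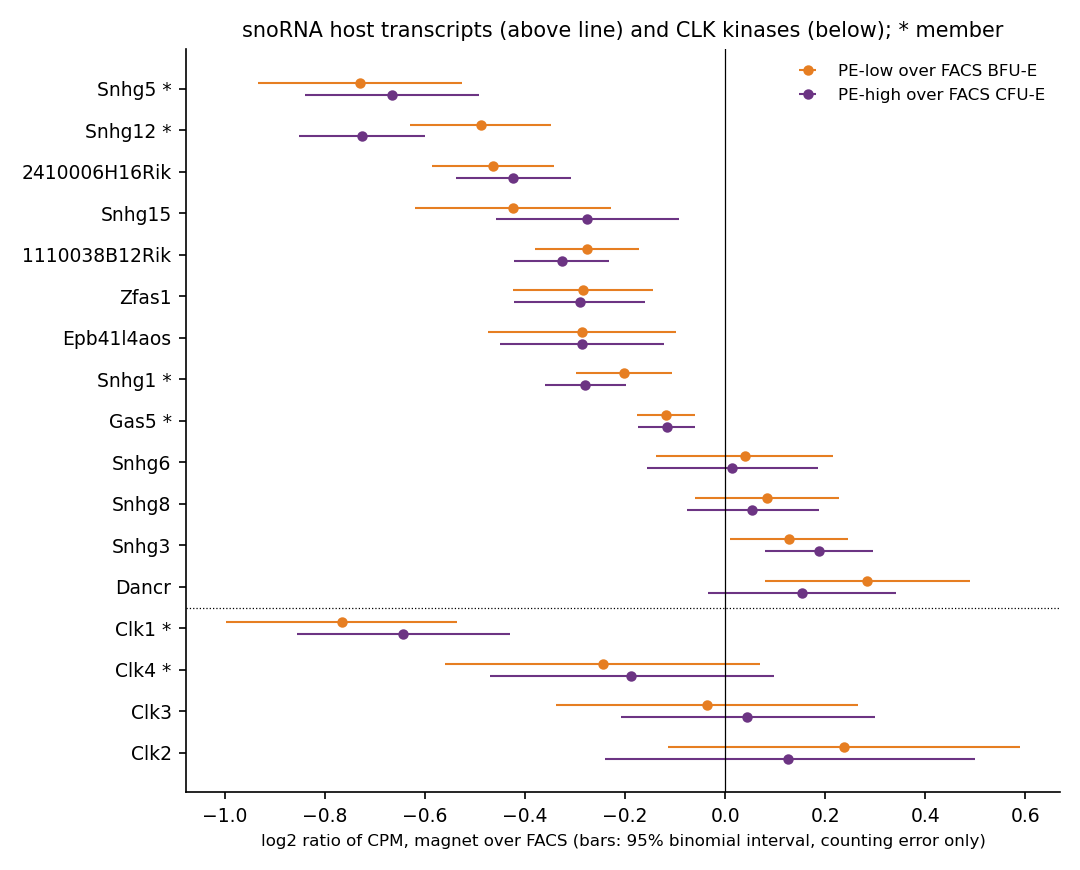
Log2 ratio of magnet to FACS (x axis) at the early (orange) and late (purple) stage for noncoding hosts of small nucleolar RNAs above the dotted line and CLK kinases below it, with 95% binomial intervals for counting error; stars mark the transcripts chosen. Snhg5, Snhg12 and Clk1 lie farthest left, and Snhg3, Snhg8 and Dancr lie right of 0.

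Genes of the pathways in which these transcripts act were described from lists. The members were chosen on this contrast, so the size of their differences is not compared with that of the lists. Only 26 of 3267 genes at the early and 27 of 3257 at the late stage lay past 1.5-fold in either direction. A list below with none past it is therefore not set apart from other genes by that count. None of the 12 SR protein genes was past 1.5-fold at either stage. The largest early log2 ratio among them was -0.33 for Srsf5, and at the late stage it was -0.13 for Tra2b. Of a list of 28 genes known for detained or retained introns, 27 entered at the early and 25 at the late stage with none past 1.5-fold and medians of 0.02 and 0.04. The lowest at both stages was Ccnl1 (-0.44 and -0.40), a cyclin of the splicing machinery, and Rbm25 (-0.22 and -0.19), a splicing regulator, was also lower in both magnet pools. Ccnl1 is named for its size on this contrast, so nothing is read from its place below the median of its list.

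Nonsense-mediated decay factors were near 0, with 10 entering at the early and 11 at the late stage, none past 1.5-fold, and medians of 0.01 and -0.04. Other transcripts known as targets of that decay, 8 of 15 at each stage, had medians of -0.11 and -0.16 and none past it. Their lowest members were the hosts Snhg15 and Zfas1. This list is not separate from those above: it shares Snhg15, Zfas1, Snhg6 and Snhg8 with the noncoding hosts and Eif4a2 with the coding ones. Decapping and 5′ decay factors, 5 and 6 entering, had medians of -0.05 and -0.01. Pnrc2, the relative of Pnrc1 that links decapping with nonsense-mediated decay, had a late log2 ratio of -0.17. Nuclear receptor coregulators, 5 entering at each stage, had medians of -0.01 and 0.06 and none past it.

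Summed early-response genes were higher in the FACS pool at both stages, most at the early stage. The summed level of 22 immediate early and dissociation-response genes was 1014 CPM for FACS BFU-E, 251 in PE-low, 293 for FACS CFU-E and 220 in PE-high, and 262, 183 and 231 in CS BFUE, CS CFUE and the unnamed cells. Of these, 6 entered the early comparison and all 6 were past 1.5-fold in favour of FACS BFU-E, against 0.490% of all genes that entered; 5 of the 6 passed the level filter in FACS BFU-E alone, so their direction follows from the filter. Jund, the gene that passed it in both, was at 156 CPM in FACS BFU-E and 66.3 in PE-low. Jun, another AP-1 subunit, was at 279 CPM in FACS BFU-E and 13.6 in PE-low. At the late stage only Jund entered, with 88.6 CPM in FACS CFU-E against 73.3 in PE-high. Under the level filter, Jun (31.8 against 6.27 CPM) and Hspa1a (15.6 against 1.45) were also higher in FACS CFU-E than in PE-high. Btg2 (8.99 against 15.8) and Klf6 (1.93 against 2.82) were lower in FACS CFU-E. Junb (35.0 against 32.0) and Dusp1 (8.66 against 8.27) hardly differed. Genes under the filter are named after their values were seen, and they did not share a direction. The summed list was highest in FACS BFU-E. Clk1 and Snhg5 were chosen on their direction, so nothing is read from a direction they share with genes of this list.

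Within each group of cells, cells above the median of the summed early-response level were set beside those below it. In FACS BFU-E, Clk1 was at 76.1 CPM in the cells above and 42.2 in those below, a ratio of 1.80 (1.48 to 2.20), and Pnrc1 at 76.6 and 40.6, a ratio of 1.89 (1.54 to 2.31). Snhg5 was at 73.3 and 73.7 CPM there, a ratio of 0.994 (0.837 to 1.18). The members therefore parted within this pool, which myeloid transcripts also divided, as described below. Clk1 and Pnrc1 went with the early-response level, and Snhg5 did not. In PE-low the ratios were 1.43 (1.098 to 1.85) for Clk1, 1.42 (1.07 to 1.89) for Pnrc1, 0.684 (0.541 to 0.863) for Snhg5 and 0.771 (0.660 to 0.899) for Snhg12, and in the unnamed cells Snhg12 had 0.851 (0.811 to 0.894). Snhg12 went the other way in FACS CFU-E, at 190 CPM above and 128 below, a ratio of 1.49 (1.31 to 1.69), where Clk1 had a ratio of 1.17 (0.939 to 1.45). In CS CFUE, where the early-response sum was lowest, Clk1, Snhg5, Snhg12 and Pnrc1 had ratios from 0.916 to 1.02.

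**Figure D4:**
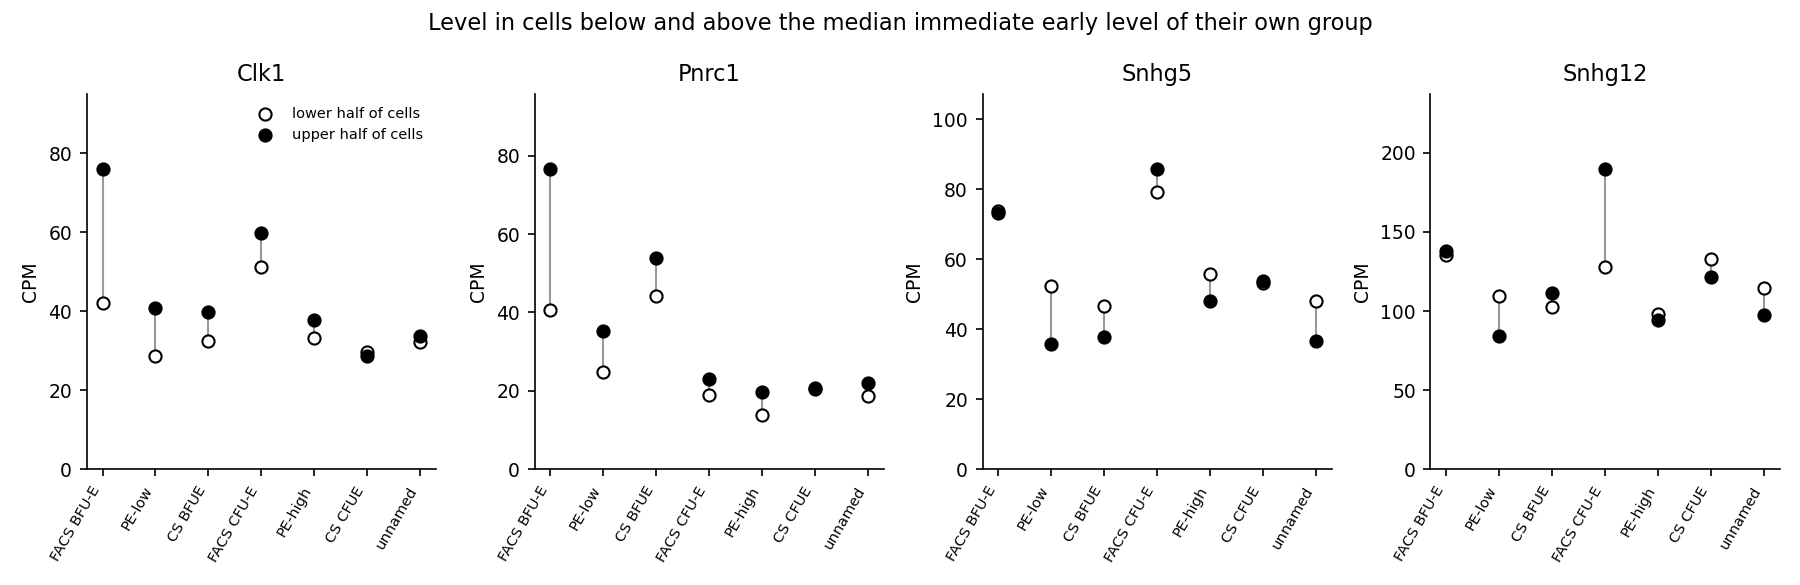
Level in CPM (y axis, from 0) of Clk1, Pnrc1, Snhg5 and Snhg12 in the cells of each group (x axis) below (open) and above (filled) that group's own median of the summed early-response genes. As a ratio the gap is widest for Pnrc1 and Clk1 in FACS BFU-E (1.89 and 1.80), while the points of Snhg5 in that pool coincide near 73 CPM.

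The magnet comparison was repeated in cells with no UMI of Jun, Fos or Hspa1a, a choice made after the data were seen. This kept 43 of 233 cells of FACS BFU-E and 146 of 208 of PE-low, and 86 of 167 of FACS CFU-E and 228 of 294 of PE-high. The early FACS to magnet ratio of Clk1 was then 1.205 (0.882 to 1.63), in place of 1.70, and that of Pnrc1 1.249 (0.877 to 1.75), in place of 1.95. That of Snhg12 was 1.13 (0.943 to 1.35), in place of 1.40, and that of Snhg5 1.49 (1.16 to 1.89), in place of 1.66. At the late stage it was 1.37 (1.12 to 1.67) for Clk1, 1.45 (1.23 to 1.70) for Snhg5 and 1.33 (1.18 to 1.503) for Snhg12. The early intervals of Clk1, Pnrc1 and Snhg12 thus included 1 in these fewer cells, and that of Snhg5 did not. All of these intervals overlap, so no difference between the members is read from them. The part of the early response in the members' levels was not tested.

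Myeloid transcripts marked another division of the cells. Cells with at least 2 UMIs of the granulocyte and monocyte markers numbered 125 of 233 for FACS BFU-E, 96 of 208 in PE-low, 61 of 122 in CS BFUE, 37 of 294 in PE-high, 7 of 167 for FACS CFU-E and 6 of 195 in CS CFUE. Pnrc1 was higher in them, at 40.4 against 21.7 CPM in PE-low (1.86-fold, 1.41 to 2.48), 36.7 against 14.2 in PE-high (2.58-fold, 1.80 to 3.63) and 63.4 against 36.1 in CS BFUE (1.76-fold, 1.246 to 2.50). In FACS BFU-E the ratio was 1.22 (1.01 to 1.49). Clk1 was at 64.3 against 52.7 CPM in that pool (1.22-fold, 1.01 to 1.48). Its ratio was 1.20 (1.02 to 1.39) in the unnamed cells, and its intervals in PE-low, PE-high and CS BFUE included 1. Snhg5 was lower in cells with myeloid transcripts, at 63.5 against 83.8 CPM for FACS BFU-E, 34.9 against 51.6 in PE-low and 31.7 against 51.9 in CS BFUE. Snhg12 was lower likewise in FACS BFU-E (113 against 160 CPM) and PE-low (81.4 against 109). The overlap of this division of the cells with that by early-response level was not tested.

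Without the cells with myeloid transcripts, Clk1 was at 52.7 CPM in FACS BFU-E and 32.1 in PE-low, and Snhg5 at 83.8 and 51.6, so both stayed higher in the FACS pool. The early log2 ratio of Pnrc1 was then -1.27 in place of -0.96. With stage, the log2 ratio of Snhg12 was then -0.01 in place of -0.23 in the FACS pair and -0.07 in place of -0.25 in the CITE-seq pair. Of the G2/M phase genes, 19 of 20 that entered the early comparison were higher in PE-low, with a median log2 ratio of 0.27. Among all genes that entered it, 1872 of 3267 were higher in PE-low. In the late comparison 8 of 20 were higher in PE-high, with a median of -0.02, against 1588 of 3257 of all genes. At the late stage the summed level of 8 erythroblast markers was 1806 CPM in PE-high and 700 in FACS CFU-E. The part of cell cycle and of erythroblast content in the members' values was not tested, apart from leaving out globin-rich cells, which left all 7 members' ratios within their intervals.

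The differences were spread over many cells. After each cell was thinned to 10000 UMIs, which left out 6 unnamed cells and none of a pool, Clk1 had a UMI in 43.8% (37.3 to 50.4, Clopper-Pearson) of FACS BFU-E cells and 30.3% (24.1 to 37.0) of PE-low cells. The shares were 43.1% (35.5 to 51.0) in FACS CFU-E, 31.0% (25.7 to 36.6) in PE-high, 28.7% in CS BFUE, 22.1% in CS CFUE and 27.7% in the unnamed cells. Before thinning they were 73.8%, 63.9%, 83.2% and 69.4% in the 4 hashed pools in that order. The FACS pools were thus again the highest at equal depth.

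For Snhg5 the thinned shares were 45.1% for FACS BFU-E, 31.3% in PE-low, 55.1% for FACS CFU-E and 38.1% in PE-high, with 31.1% in CS BFUE, 45.1% in CS CFUE and 31.5% in the unnamed cells. For Snhg12 they were 67.0%, 57.2%, 74.3% and 60.2% in the 4 hashed pools in the same order. CS BFUE had 63.9%, CS CFUE 73.3% and the unnamed cells 63.0%. By share of cells at equal depth, CS CFUE was thus above FACS BFU-E for Snhg12 and level with it for Snhg5. Cells with 3 or more UMIs of Snhg12 were 13.7% of FACS BFU-E and 7.21% of PE-low. For Pnrc1 the shares were 40.8% for FACS BFU-E, 28.4% in PE-low, 41.0% in CS BFUE and 13.8% to 15.0% in the 3 late pools. No cell type in these libraries is known to lack these transcripts, so the part of free RNA in the shares was not tested.

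**Figure D5:**
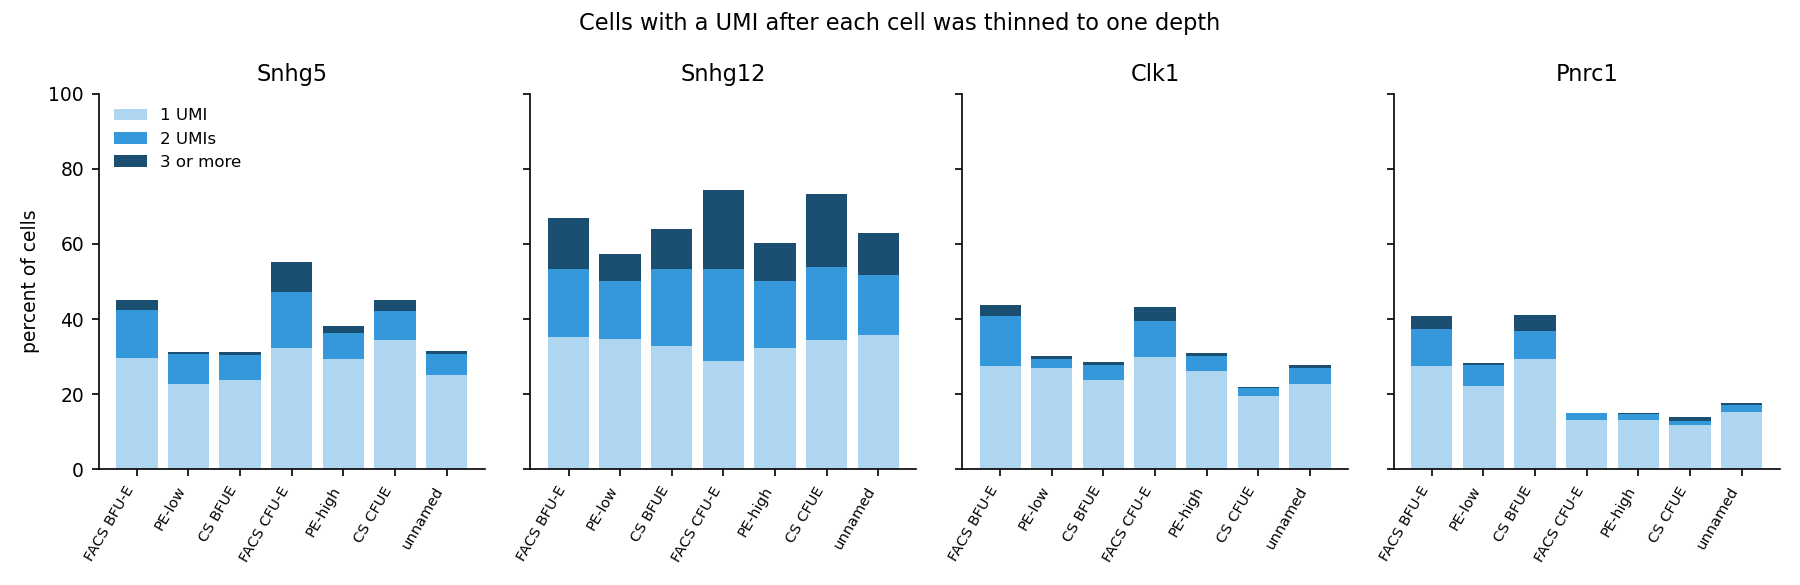
Percent of cells (y axis) with 1, 2, or 3 or more UMIs of Snhg5, Snhg12, Clk1 and Pnrc1 in each group of cells (x axis) after thinning to 10000 UMIs per cell. For Clk1 the 2 FACS pools reach 43.8% and 43.1% and no other group exceeds 31.0%.

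No single cell carried the levels. The 10% of cells with the most Clk1 UMIs held 33.6% of them for FACS BFU-E, 33.2% in PE-low, 28.3% for FACS CFU-E and 30.9% in PE-high, and the most in 1 cell was 10 UMIs. For Snhg5 the corresponding cells held 30.4%, 34.1%, 26.6% and 31.4%. All 8 shares lay between 26.6% and 34.1%.

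Over the 3357 cells, with values centred within each name, the hosts were weakly correlated with each other, with Pearson's r of 0.24 for Snhg1 and Gas5, 0.18 for Snhg5 and Snhg12 and 0.06 for Snhg5 and Gas5. Clk1 had 0.01 with Snhg5, 0.11 with Pnrc1 and 0.09 with Clk4. These are descriptions of sparse counts that share each cell's depth, and values this low are no finding.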

How the data were processed

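A single table of natural log values per cell and gene was deposited by the authors; back on the linear scale every cell totals 10000. Cell Ranger 4.0.0 and Scanpy, with build mm10, are named per the submitters' processing notes. Cell filters and doublet handling upstream are not given in the sources, and no doublets were removed here. The authors' deposited component coordinates, a score, were not used. Dividing the linear values of a cell by the smallest of them gave UMIs; 16419767 of 16419767 nonzero values (100%) came out whole within 0.02. Symbols were found for 17592 IDs. Pools follow the deposited cell names, and cells were placed in a library by barcode suffix, the CITE-seq library by elimination; 2 unnamed cells of the hashed library were left out.

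UMIs were summed per pool and scaled to CPM. The 5 comparisons were the 2 magnet against FACS pairs and the 3 early against late pairs, with no test, since each pool is 1 sample. Levels have exact Poisson, ratios exact conditional binomial and shares Clopper-Pearson intervals, all at 95%. The procedure was tested on simulated data. The members and lists were chosen with earlier results of these data known. Named genes are the 7 members, every other noncoding host and CLK or DYRK gene that entered, up to 3 genes by size of ratio of each other list, and the genes most like Clk1, Snhg5 and the summed members; others are said to be named after their values were seen. Alternatives were another scaling, level filter and fold, thinned cells, and leaving out myeloid, globin-rich or early-response cells. Python 3.11.15, numpy 2.4.6, scipy 1.17.1 and pandas 2.3.3 were used. Promoter stretches and gene positions are from RefSeq tables of GRCm38.p6, which mm10 denotes. Some genes that the naming rule covers are not reported here.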

Additional observations from a re-analysis of the deposited data

How the results depend on the processing

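Each of the 35 member ratios was recomputed under 6 alternatives, and the 14 magnet ratios under 1 added after the data were seen, 224 values in all. Of these, 196 stayed within the interval of the value reported and 28 did not. The sign of Clk1, Snhg5, Snhg12, Snhg1 and Gas5 in the magnet comparisons was kept in all of them. A different sign was found 10 times: for Clk4 with stage (0.43 in the CITE-seq library when thinned), for Snhg12 with stage in the magnet pools (-0.16 when thinned), for Clk1 with stage in the FACS pools (-0.06 without cells with myeloid transcripts) and for Pnrc1 in the late magnet comparison (0.05 when thinned). The largest change in a log2 ratio was 0.64, for Pnrc1 at the early stage (-0.32 in cells with no UMI of Jun, Fos or Hspa1a). Thinned, the late log2 ratio of Snhg5 was -0.90.

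Counts of genes past the size depended on filter and fold, by construction. With a filter of 20 CPM, no filter, a fold of 5 to 4 and 2-fold, the magnet comparison counted 76, 716, 127 and 10 genes at the early stage (26 as reported) and 70, 745, 99 and 15 at the late stage (27 as reported). With cells thinned these counts were 50 and 42, and without cells with myeloid transcripts the late count was 11. Stage counts under the same 4 settings were 1382, 3087, 1305 and 329 with FACS (651 as reported), 968, 2702, 929 and 217 with the magnet (440) and 1289, 2702, 1183 and 290 in the CITE-seq library (600). Members past 2-fold were 0 in both magnet comparisons. With stage, 2 of the 6 members that entered were past a fold of 5 to 4 with FACS, against 1305 of 3476 genes. In the CITE-seq library 2 of 4 were past it, against 1183 of 3077 genes. With 20 CPM or no filter 1 member, Pnrc1, was past 1.5-fold with the magnet and 1 in the CITE-seq library, where 1 was also past it when thinned and when ribosomal, mitochondrial and globin genes were left out of the total. The share of all genes past the fold under those settings is not given, so nothing is read from these counts of members. No paired analysis was possible because each pool is 1 sample. Depth limits Clk4 most, with 58 to 190 UMIs in 5 of the 6 named pools. Counts were also low for Pnrc1 in FACS CFU-E (131 UMIs) and, in CS BFUE, for Clk1 (107) and Snhg5 (126).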

Other observations

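Over the 6 named pools, the genes with levels most like Clk1 were Snhg15 (Pearson's r of log2 CPM 0.969), Rbm25 (0.967) and Phf20l1 (0.966). Snhg15 was at 70.1 and 66.9 CPM in the FACS pools (early, late), 52.2 and 55.3 in the magnet pools and 59.0 and 49.5 in the CITE-seq pools. Those most like Snhg5 were Pdhb (0.971), a subunit of pyruvate dehydrogenase, Psmg2 (0.959), a proteasome assembly chaperone, and Rbm42 (0.944), with FACS levels only slightly above the rest: Pdhb was at 81.0 and 86.8 CPM in the FACS pools and between 71.0 and 77.3 in the other 4. With 6 pools that share 2 libraries these are descriptions of order.

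Over single cells, the genes most like Snhg5 were the nucleolar genes Ncl (0.28), Nolc1 (0.26), Npm1 (0.25) and Gnl3 (0.25), and the chaperone gene Hsp90aa1 (0.25). Ncl was not lower after the magnet: its levels were 4369 CPM with FACS and 4565 with the magnet at the early stage, and 4827 and 4896 at the late stage. The gene most like Clk1 was Malat1 (0.21), a nuclear noncoding RNA, followed by Hnrnpa2b1 (0.13) and Klhl24 (0.12). The summed members were most like 2410006H16Rik (0.33), Npm1 (0.31) and Zfas1 (0.30). All of these are weak, and the points share each cell's depth.

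Noncoding hosts did not all differ alike between libraries. Snhg3 was at 156 to 192 CPM in the 4 hashed pools and at 327 and 369 in CS BFUE and CS CFUE, Snhg8 at 107 to 121 against 226 and 199, and Snhg6 at 70.3 to 74.3 against 119 and 137. Snhg12 was at 96.3 to 159 CPM in the hashed pools and within that range, at 107 and 127, in the CITE-seq pools. Snhg5 was at 44.3 to 82.6 CPM against 42.4 and 53.6, near the magnet pools. Library, antibody staining and isolation cannot be told apart here.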
